A study of Homo sapiens with 7 samples.

Results

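SNU398 is an established cell line from a human hepatocellular carcinoma, and 1 comparison within it is described here: cells given PEN-WT, a peptide derived from the transcription factor SALL4, against cells given PEN-MUT, its mutated control. The members were all genes whose normalized count, averaged over the 4 RNA libraries of the study, was at least 50, which kept 12578 of 23710 genes in the table. The labels name no genetic change or further agent in any group, and each library came from cells exposed to 30 µM of 1 peptide for 8 h: PEN (penetratin, the cell-penetrating carrier alone), PEN-MUT, PEN-WT or PEN-FFW. By what is known about these peptides, PEN-WT joins the carrier to the stretch of SALL4 that binds RBBP4, PEN-MUT carries a form of that stretch mutated to lose binding, and PEN-FFW carries an engineered variant of it. The study had 7 samples, of which the 3 chromatin immunoprecipitation and input samples are not analysed here. The comparison answers which transcripts differ when the SALL4 stretch on the carrier is the native one and not the mutated one. There was 1 library per peptide and nothing in the labels names separate cultures, so no difference below has a replicate, a test or a p-value.

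SALL4 is a zinc finger protein of early development that is silent in adult liver and made again in some liver cancers. Its amino-terminal end docks on the histone-binding proteins RBBP4 and RBBP7, through which it brings in NuRD, a complex that slides nucleosomes and removes acetyl groups from histones and is known mainly for repressing transcription. A peptide copy of that end can compete with SALL4 for RBBP4, and the carrier brings it into the cell.

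Depth was 32043544 reads in PEN-MUT and 40717633 in PEN-WT, with 37784093 in PEN and 27347377 in PEN-FFW, counted in genes above the lowest deposited value, a normalized count of 5. No tested gene was at that floor in any library. Normalized counts are given as deposited, a scale on which the median tested gene of PEN-FFW stood at -0.28 from PEN. Where an order of the libraries is stated, it holds on that scale and also relative to the median tested gene. All differences are log2 values of PEN-WT minus PEN-MUT, relative to the median tested gene, which itself stood at 0.00043 before centring. The ± is the counting standard error of the reads of both libraries, and a 95% counting interval is the exact binomial (Clopper-Pearson) one. Both cover counting only, so the full error between cultures is larger by an unknown amount. In bulk RNA, fewer cells of a type and less RNA per cell cannot be told apart. Of 10 hepatocyte markers only ALB was tested, and TTR, TF, SERPINA1, FGB and HNF4A were at the floor in all 4 libraries, with summed levels of 154 to 249. Fibroblast and stromal markers were tested for 8 of 10 genes, and their summed normalized count was 88358 to 103644, of which COL3A1 alone made up 72895 to 79779. LUM, DCN and FAP were also present, while COL1A2 (17.9 to 30) and PDGFRB (5 to 6.72) were not tested. Endothelial markers (summed 125 to 155, with 6 of 8 at the floor), leukocyte markers (639 to 738, 7 of 12) and erythroid markers (40.0 to 41.5, 7 of 8) stayed low in all 4 libraries.

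PEN-WT and PEN-MUT differed little for most genes, and where they differed, PEN-WT was far more often the higher library. The difference lay within 1.2-fold for 89.3% of tested genes. In PEN-WT 159 genes were at least 1.5-fold higher, a share of 1.26% of those tested, and 9 genes were at least 1.5-fold lower (0.0716%). At 2-fold these counts were 11 (0.0875%) and 0. Of the 159 higher genes, 50 (0.398% of tested genes) were also at least 1.5-fold above PEN, as 141 of all tested genes were. For 18 of them (0.143%) PEN-MUT itself was at least 1.5-fold below PEN, against 0.477% of all tested genes. Both counts share a library with the choice of the 159. At least 1.5-fold above each of the 3 other libraries were 0 genes. The 95% counting interval lay above 0 for 157 of the 159 and below 0 for all 9 lower genes. These genes were chosen by the size of the same difference, so that result was largely set by the choice and is no separate check. The interval lay wholly past 1.5-fold for only 21 higher genes and 1 lower gene, MAP1B. The genes nearest the 1.5-fold line were GNAO1 (0.587) and FLRT1 (0.588) inside it and CARD9 (0.584) and VANGL2 (0.583) outside it.

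The SD of the differences over tested genes was 0.178. Between the control peptides PEN-MUT and PEN, a pair that shares the PEN-MUT library with this one, it was 0.170, with 41 genes at least 1.5-fold higher (0.326%) and 60 lower (0.477%). The spread was thus about as wide between the control peptides as between PEN-WT and PEN-MUT, while the excess of higher genes over lower ones was seen for PEN-WT. Counting error is small for the 6632 genes whose mean normalized count was 1000 or more. Of these, 15 were higher in PEN-WT than in PEN-MUT by 1.5-fold or more (0.226%) and 1 was lower (0.0151%). Among the 917 genes with a mean of 50 to 100, 72 were higher and 8 lower. In that thin range the robust SD of the differences was 0.285, against 0.235 from counting alone, and above a mean of 10000 it was 0.0756 against 0.0148. Counting alone thus gave most of the spread of thinly counted genes and little of the spread of the most abundant ones. The median difference also ran from 0.11 at a mean of 50 to 100 to -0.08 above 10000.

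**Figure D1:**
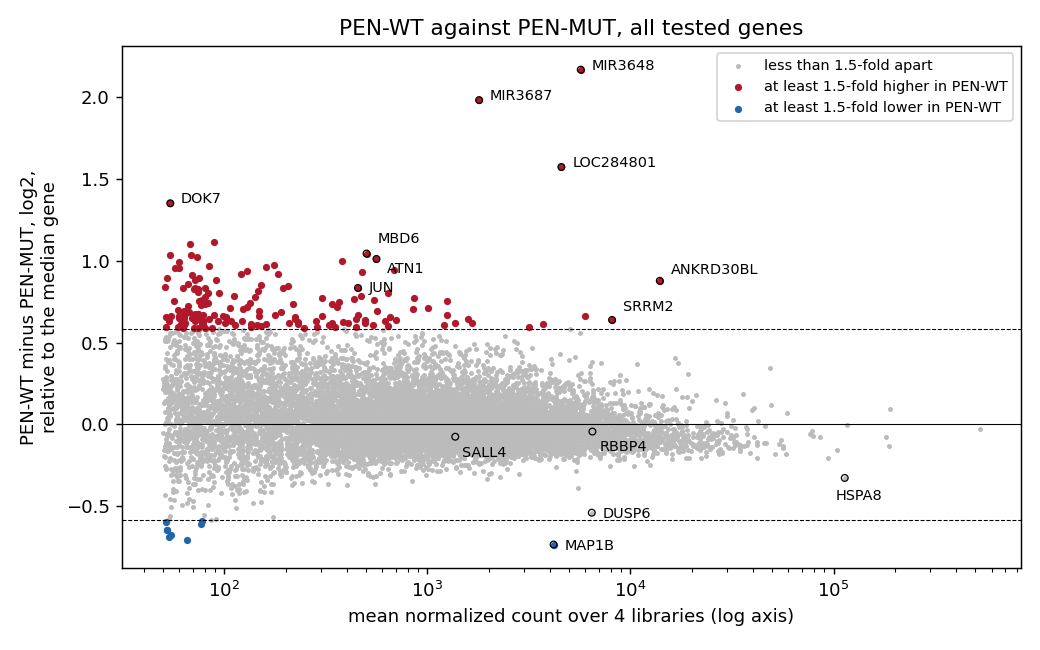
Difference of PEN-WT minus PEN-MUT (log2, relative to the median gene) against the mean normalized count over 4 libraries (log axis), 1 point per tested gene. Red points are the 159 genes at least 1.5-fold higher and blue points the 9 at least 1.5-fold lower; circles mark genes named in the text, and the dashed lines are at 1.5-fold.

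The largest differences belonged to a pair of microRNA genes and a clone-named locus and not to protein-coding genes. The microRNA gene MIR3648 had 1855 normalized counts in PEN-MUT and 8328 in PEN-WT, beside 972 in PEN and 11605 in PEN-FFW, a difference of 2.17 ± 0.04, and its neighbour MIR3687 had 588 normalized counts in PEN-MUT and 2321 in PEN-WT, beside 368 in PEN and 3909.7 in PEN-FFW (1.98 ± 0.07). Both lie on the plus strand of chromosome 21 in GRCh37, from 9825832 to 9826011 and from 9826203 to 9826263. The uncharacterised LOC284801 (1334 normalized counts in PEN-MUT and 3967 in PEN-WT, beside 989 in PEN and 11976 in PEN-FFW, 1.57 ± 0.04) and MIR663A (535 normalized counts in PEN-MUT and 903 in PEN-WT, beside 473 in PEN and 3082 in PEN-FFW, 0.75 ± 0.08) were ordered the same way, lowest in PEN and highest in PEN-FFW. The mature products of 2 of these genes, from RefSeq on GRCh38.p14, are shown because their letters recur in ribosomal DNA; capitals mark the seed, bases 2 to 8, and the seeds differ.
hsa-miR-3648: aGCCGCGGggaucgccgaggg
hsa-miR-663a: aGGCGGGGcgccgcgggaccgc
RefSeq places hsa-miR-3648 on chromosome 21 (8987026 to 8987046, plus strand) and hsa-miR-663a on chromosome 20 (26208243 to 26208264, minus strand). Their GC content is 81.0% and 90.9%. Each sequence occurs 3 times in GRCh37, 2 of them on an unplaced scaffold that carries ribosomal DNA repeats. The mature sequence alone therefore cannot tell these copies apart. Whether the sequence around it can was not tested. The libraries count fragments over the locus, not the mature microRNA, and the level of the mature product was not measured. Of 135 tested small RNA names 4 were at least 1.5-fold higher (2.96%) and of 261 clone names 7 (2.68%), beside 1.26% of all tested genes. The 119 tested small nucleolar and Cajal body RNAs had a median of -0.01, with 1 member 1.5-fold higher, SNORD52 (0.59 ± 0.22), and 1 lower, SNORD87 (57 normalized counts in PEN-MUT and 35.7 in PEN-WT, beside 67.2 in PEN and 57.2 in PEN-FFW, -0.68 ± 0.29), both named after their values were seen.

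Among other genes, the 10 farthest above PEN-MUT held regulators of transcription and chromatin beside thinly counted tissue genes, and 9 of the 10 are given here. DOK7, the adaptor that activates the receptor kinase MuSK at the neuromuscular junction (plus strand of chromosome 4, 3465033 to 3503200 in GRCh37), had 21 normalized counts in PEN-MUT and 53.6 in PEN-WT, beside 21.0 in PEN and 121 in PEN-FFW, a difference of 1.35 ± 0.36. It was as low in PEN as in PEN-MUT and higher still in PEN-FFW, on few reads. MBD6, which has a methyl-CpG-binding domain and works with a histone H2A deubiquitinase (plus strand of chromosome 12, 57914493 to 57923931 in GRCh37), had 288 normalized counts in PEN-MUT and 594 in PEN-WT, beside 368 in PEN and 755 in PEN-FFW (1.04 ± 0.10). ATN1, the corepressor atrophin-1 (plus strand of chromosome 12, 7033626 to 7051484 in GRCh37), had 290 normalized counts in PEN-MUT and 585 in PEN-WT, beside 322 in PEN and 1047 in PEN-FFW (1.01 ± 0.10). MBD6 and ATN1 shared the order PEN-MUT, PEN, PEN-WT, PEN-FFW from lowest to highest.

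The other 6 had mean normalized counts under 100 and were lower in PEN-MUT than in PEN. MFSD7, a transporter of the major facilitator family, had 47 normalized counts in PEN-MUT and 102 in PEN-WT, beside 75.6 in PEN and 132 in PEN-FFW (1.11 ± 0.25). SLC7A8, the light chain of a neutral amino acid exchanger, had 42 normalized counts in PEN-MUT and 90.0 in PEN-WT, beside 73.1 in PEN and 65.5 in PEN-FFW (1.10 ± 0.26), and PEN-WT was its highest library. IKZF4, the Ikaros-family repressor Eos, had 39 normalized counts in PEN-MUT and 79.2 in PEN-WT, beside 71.4 in PEN and 105 in PEN-FFW (1.02 ± 0.27). These 3 stood at -0.71, -0.82 and -0.89 in PEN-MUT minus PEN. NOVA2, a splicing factor of neurons, was at 1.04 ± 0.30, BTBD6, a BTB-domain protein, at 1.04 ± 0.32, and SBSN, a secreted protein of the epidermis, at 0.99 ± 0.27. Their counts in PEN-MUT were 31, 28 and 39, and in PEN-WT 63.7, 57.4 and 77.6.

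The promoter of MBD6 is shown because, among those of the 9 genes with at least 200 normalized counts in every library, it had the largest difference. It is the RefSeq window from 250 bases before to 50 bases after the annotated start, chr12:57522574-57522873 on the plus strand of GRCh38.p14, with 75.7% GC. Capitals mark GGGCGG or its reverse complement, the GC box (2 matches).
MBD6: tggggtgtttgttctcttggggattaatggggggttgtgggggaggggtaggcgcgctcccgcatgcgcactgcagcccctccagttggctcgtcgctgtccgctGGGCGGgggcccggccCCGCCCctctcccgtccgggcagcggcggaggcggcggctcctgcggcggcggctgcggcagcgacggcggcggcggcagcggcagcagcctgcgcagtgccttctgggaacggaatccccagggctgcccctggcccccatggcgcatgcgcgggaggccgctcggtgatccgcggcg
RefSeq windows were matched by symbol for 95 of the 159 higher genes and 9162 of the tested genes. GGGCGG on either strand was in 75.8% of the former, 78.4% of the latter and 48.3% of all 27305 genes with a window. The E-box CACGTG was in 7.37%, 12.9% and 8.77%. The cyclic AMP response element TGACGTCA was in 7 of the 95 windows (7.37%, against 3.94% of tested genes), and the AP-1 element TGACTCA in 5 (5.26%, against 4.42%). The median GC content of the windows was 65.7% for the higher genes and 65.2% for the tested genes. A match is a description of the letters in the window, not a site of binding.

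Among genes with a mean of at least 1000, MIR3648, MIR3687 and LOC284801 had the largest differences, and those of the 6 described next were smaller. ANKRD30BL, an ankyrin repeat gene (minus strand of chromosome 2, 132905164 to 133015542 in GRCh37), had 6088 normalized counts in PEN-MUT and 11185 in PEN-WT, beside 4822 in PEN and 33678 in PEN-FFW (0.88 ± 0.02), and like MIR3648 and its neighbour it was lowest in PEN and highest in PEN-FFW. SRRM2, a scaffold of the nuclear speckles in which splicing factors gather, had 4822 normalized counts in PEN-MUT and 7508 in PEN-WT, beside 5600.2 in PEN and 14525 in PEN-FFW (0.64 ± 0.03). ATXN2L, a regulator of stress granules, had 4616 normalized counts in PEN-MUT and 7316 in PEN-WT, beside 5309 in PEN and 6759 in PEN-FFW (0.66 ± 0.03). Both SRRM2 and ATXN2L were lowest in PEN-MUT, with PEN next, and SRRM2 was highest in PEN-FFW.

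PATL1, a scaffold of mRNA decapping, had 1325 normalized counts in PEN-MUT and 2069 in PEN-WT, beside 1470.4 in PEN and 1486 in PEN-FFW (0.64 ± 0.05), in the order PEN-MUT, PEN, PEN-FFW, PEN-WT from lowest to highest. PTPN23, which sorts receptors at endosomes, was at 0.71 ± 0.07 (690 normalized counts in PEN-MUT and 1129 in PEN-WT, beside 781 in PEN and 1435 in PEN-FFW). LENG8 was at 0.67 ± 0.06 (853 normalized counts in PEN-MUT and 1358 in PEN-WT, beside 972 in PEN and 1828 in PEN-FFW). Each of these 6 abundant genes except ANKRD30BL was lower in PEN-MUT than in PEN, at -0.17 (PATL1) to -0.24 (SRRM2) in PEN-MUT minus PEN.

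Lower in PEN-WT was a short and mostly thinly counted set, and MAP1B stood out from it by its abundance. MAP1B, a microtubule-binding protein best known from growing axons (plus strand of chromosome 5, 71403061 to 71505392 in GRCh37), had 4169 normalized counts in PEN-MUT and 2509.6 in PEN-WT, beside 2982 in PEN and 7063 in PEN-FFW, a difference of -0.73 ± 0.03 (95% counting interval -0.80 to -0.67). PEN-WT was its lowest library, PEN was next, and PEN-MUT and PEN-FFW were higher, so PEN-MUT itself stood 0.46 above PEN. DUSP6, the phosphatase that switches off the kinase ERK (minus strand of chromosome 12, 89741012 to 89746278 in GRCh37), had 5774 normalized counts in PEN-MUT and 3977 in PEN-WT, beside 13038 in PEN and 3005 in PEN-FFW (-0.54 ± 0.03), most in PEN and least in PEN-FFW. SPRY2, another brake on the same pathway, was also highest in PEN, with 5905 normalized counts in PEN-MUT and 4522 in PEN-WT, beside 7882 in PEN and 3789 in PEN-FFW (-0.39 ± 0.03). DUSP6 and SPRY2 did not reach 1.5-fold between PEN-WT and PEN-MUT.

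Among the 6 lowest abundant genes were also HK2, the hexokinase that starts glycolysis in growing cells (-0.33 ± 0.05), HSPA8, the constitutive member of the heat shock protein family that folds new proteins (-0.33 ± 0.01), and RPL39, a protein of the large ribosomal subunit (-0.32 ± 0.04). HSPA8 had 132065 normalized counts in PEN-MUT and 105362 in PEN-WT, beside 136375 in PEN and 80502 in PEN-FFW. HK2 had 2021 normalized counts in PEN-MUT and 1605 in PEN-WT, beside 2693 in PEN and 1546 in PEN-FFW. For both genes PEN was the highest library and PEN-MUT the next.

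Of the 10 lowest genes other than small RNA and clone names, the 9 after MAP1B had between 61 and 115 normalized counts in PEN-MUT and between 40.4 and 76.8 in PEN-WT. SAMSN1, an adaptor of lymphocyte signalling, was at -0.69 ± 0.26 (70 normalized counts in PEN-MUT and 43.5 in PEN-WT, beside 66.3 in PEN and 33.2 in PEN-FFW). PHLDA2, an imprinted gene that limits placental growth, was at -0.61 ± 0.22 (97 normalized counts in PEN-MUT and 63.7 in PEN-WT, beside 93.2 in PEN and 53.5 in PEN-FFW). NT5E, the ectonucleotidase that makes adenosine, was at -0.58 ± 0.20 (115 normalized counts in PEN-MUT and 76.8 in PEN-WT, beside 84.0 in PEN and 67.4 in PEN-FFW). SAMSN1 and PHLDA2 had near-equal values in the control libraries, while NT5E was lower in PEN than in PEN-MUT. HMGCLL1, a relative of the lyase of ketone body synthesis, was at -0.64 ± 0.23, but its level in PEN (39.5) lay below that in PEN-WT (55.1) and in PEN-MUT (86). C14orf28 was at -0.70 ± 0.23, TMEM187 at -0.60 ± 0.27 and TMEM255B at -0.58 ± 0.25. NT5E and TMEM255B did not reach 1.5-fold. CSTF3-AS1 (-0.65 ± 0.26) is named as antisense to CSTF3 and SDHAP3 (-0.59 ± 0.23) is a pseudogene of a mitochondrial dehydrogenase subunit, so reads of their partners may be counted with them.

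**Figure D2:**
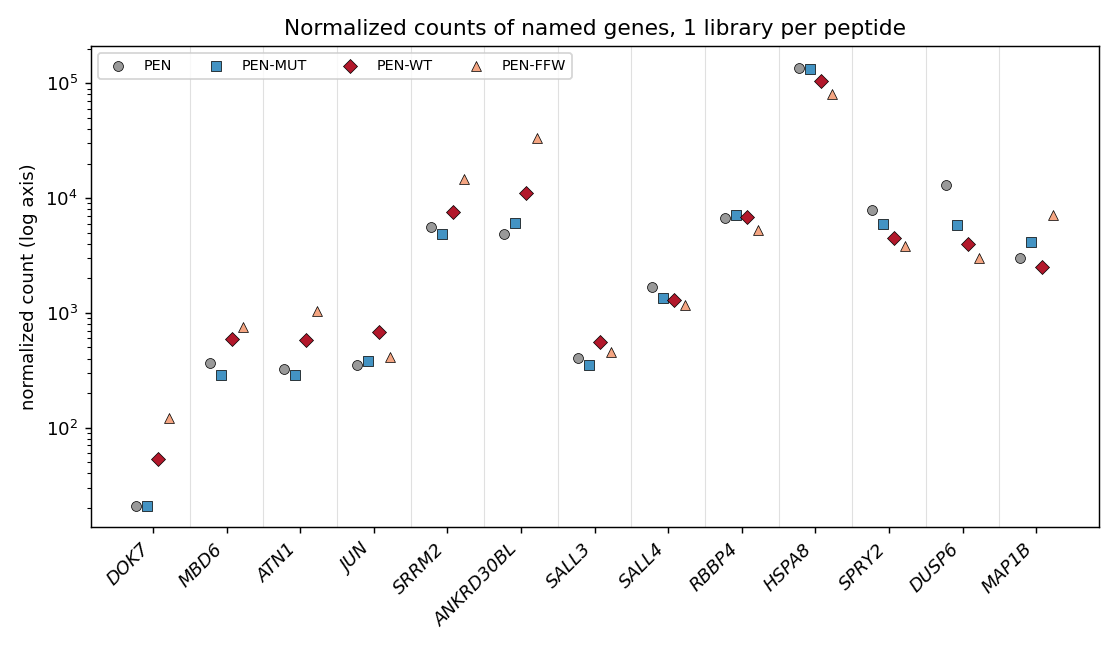
Normalized counts (log axis) of 13 genes in the 4 libraries, 1 point per library and peptide. DOK7, MBD6, ATN1, SRRM2 and ANKRD30BL are higher in PEN-WT than in PEN-MUT and higher still in PEN-FFW, JUN is highest in PEN-WT, and MAP1B is lowest in PEN-WT.

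Transcripts of SALL4, from which the peptide derives, and of RBBP4, which it binds, differed little. SALL4 had 1359 normalized counts in PEN-MUT and 1291 in PEN-WT, beside 1665 in PEN and 1168 in PEN-FFW (-0.07 ± 0.05), so PEN-WT and PEN-MUT were close and PEN was above both. RBBP4 had 7082 normalized counts in PEN-MUT and 6875 in PEN-WT, beside 6773 in PEN and 5241 in PEN-FFW (-0.04 ± 0.02). The relatives of SALL4 were higher in PEN-WT than in PEN-MUT, and SALL3 was past 1.5-fold at 0.64 ± 0.09 (355 normalized counts in PEN-MUT and 555 in PEN-WT, beside 406 in PEN and 456 in PEN-FFW). SALL1 was at 0.31 ± 0.07 (667 normalized counts in PEN-MUT and 829 in PEN-WT, beside 822 in PEN and 703 in PEN-FFW) and SALL2 at 0.31 ± 0.06 (985 normalized counts in PEN-MUT and 1223 in PEN-WT, beside 918 in PEN and 1008 in PEN-FFW). For SALL1 the PEN library was about as high as PEN-WT and PEN-MUT was the lowest of the 4, whereas SALL2 was lowest in PEN.

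NuRD holds remodelling, deacetylase, histone-binding, methyl-CpG-binding and scaffold subunits. Past 1.5-fold was 1 of its 15 tested genes (6.67%, beside 1.26% of all tested genes). That gene was GATAD2B, a scaffold subunit (0.59 ± 0.10), with 349 normalized counts in PEN-MUT and 526 in PEN-WT, beside 376 in PEN and 533 in PEN-FFW. The median of the 15 was -0.04 beside 0 over all tested genes, with 5 above the median gene and 10 below. Of the remodelling ATPases, CHD5 was at 0.26 ± 0.05, CHD3 at 0.22 ± 0.03 and CHD4, the main one in most cells, at -0.08 ± 0.01. The deacetylases HDAC1 and HDAC2 were at -0.16 ± 0.03 and -0.05 ± 0.03, and RBBP7 at -0.11 ± 0.03. The scaffolds MTA1, MTA2, MTA3 and GATAD2A lay at 0.09, -0.05, -0.09 and 0.12, the methyl-CpG-binding subunits MBD2 and MBD3 at -0.03 and -0.01, and CDK2AP1 at -0.05. Against genes of like GC content HDAC2 (0.01) lay on the other side of the median gene, as MBD3 (0.01) did with library totals as the scale. Genes tied to SALL4 in earlier work had a median of 0.00 over 12 tested members, with MYC farthest below (-0.17 ± 0.03), and 0 were past 1.5-fold.

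Genes of large chromatin regulators were mostly above the median gene. Of 26 tested corepressors and coactivators 23 were above it, with a median of 0.19. Past 1.5-fold were 2, ATN1 and BCORL1 (7.69%, beside 1.26% of all tested genes). BCORL1, a corepressor of the Polycomb type, had 297 normalized counts in PEN-MUT and 505 in PEN-WT, beside 281 in PEN and 661 in PEN-FFW (0.77 ± 0.10). RERE, the second atrophin, was at 0.52 ± 0.06, the acetyltransferase CREBBP at 0.50 ± 0.04 and the Groucho-type corepressor TLE3 at 0.46 ± 0.04. ATN1, BCORL1, RERE, CREBBP and TLE3 were all higher in PEN-WT than in both control libraries.

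Writers and erasers of histone lysine methylation had a median of 0.11 over 39 tested genes, 30 of them above the median gene. Past 1.5-fold was 1 of the 39 (2.56%, beside 1.26% of all tested genes). KDM6B, which removes methyl groups that Polycomb places, was past 1.5-fold with 212 normalized counts in PEN-MUT and 356 in PEN-WT, beside 273 in PEN and 633 in PEN-FFW (0.75 ± 0.12). MLL2 and MLL4, methyltransferases of enhancers and promoters, stood at 0.58 ± 0.03 and 0.51 ± 0.04. SETD1B and SETD1A, which methylate histones at active promoters, were at 0.48 ± 0.05 and 0.46 ± 0.05. All 5 were higher still in PEN-FFW.

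Large chromatin remodellers had a median of 0.07 over 26 genes, 18 above the median gene. The share past 1.5-fold was 3.85%, beside 1.26% of all tested genes. SRCAP, which places the histone variant H2A.Z, had 2472 normalized counts in PEN-MUT and 3782 in PEN-WT, beside 2689.7 in PEN and 5817 in PEN-FFW (0.61 ± 0.04), the 1 member past 1.5-fold. EP400 was at 0.43 ± 0.04, and the SWI/SNF subunits ARID1A and ARID1B at 0.43 ± 0.03 and 0.34 ± 0.03. BAZ2A, a silencer of ribosomal RNA genes, was at 0.33 ± 0.03. Members of these 3 lists have long transcripts, with medians of 7004 bases for corepressors and coactivators, 5991 for histone methylation genes and 8306 for remodellers, against 3405 over tested genes. Among RNAs that stay in the nucleus, KCNQ1OT1 was at 0.46 ± 0.05, NEAT1 at 0.35 ± 0.06 and MALAT1 at 0.34 ± 0.01, with a median of 0.18 over 7 tested RNAs and 0 past 1.5-fold. Against PEN, MALAT1 stood at -0.35 in PEN-MUT and -0.01 in PEN-WT, NEAT1 at -0.31 and 0.02, and KCNQ1OT1 at -0.28 and 0.17. PEN-MUT was thus below the carrier for all 3, and PEN-WT was close to it for MALAT1 and NEAT1. SR splicing proteins had a median of 0.02 over 22 genes, with SRRM1 (0.43 ± 0.04) beside SRRM2.

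Genes of AP-1, the transcription factor formed by JUN and FOS proteins that answers growth and stress signals, lay on both sides of the median gene. Of 13 tested, 8 were above the median gene and 3 were at least 1.5-fold higher, beside 1.26% of all tested genes, with a median of 0.37. Against PEN the median of the 13 was -0.32 in PEN-MUT and -0.10 in PEN-WT, so the list median was below the carrier in both and lower in PEN-MUT. Single members differed from it. In PEN-WT minus PEN, JUN was at 0.93, MAF at 0.58, ATF3 at 0.56 and JUND at 0.48, but FOSL1 at -0.22. JUN (minus strand of chromosome 1, 59242517 to 59249720 in GRCh37) had 381 normalized counts in PEN-MUT and 679 in PEN-WT, beside 348 in PEN and 411 in PEN-FFW (0.83 ± 0.09), highest in PEN-WT, with PEN-FFW next. JUND had 2767 normalized counts in PEN-MUT and 4175 in PEN-WT, beside 2931 in PEN and 2800.0 in PEN-FFW (0.59 ± 0.03), highest in PEN-WT and lowest in PEN-MUT. FOSL1 had 68 normalized counts in PEN-MUT and 106 in PEN-WT, beside 120.1 in PEN and 79.4 in PEN-FFW (0.63 ± 0.21), but PEN was higher than PEN-WT. The stress factor ATF3 was at 0.48 ± 0.12, highest in PEN-WT, and MAF at 0.42 ± 0.18. Chosen after their values were seen, FOS was at -0.15 ± 0.05 and JUNB at -0.09 ± 0.05.

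The promoter of JUN is shown because JUN was the AP-1 gene farthest from PEN-MUT and its promoter holds an element that JUN-containing dimers are known to bind. The RefSeq window is chr1:58783998-58784297 on the minus strand of GRCh38.p14, with 62.0% GC. Capitals mark GGGCGG on either strand (2 matches) and TGACATCA (1 match), the variant AP-1 element, which was in 2.24% of the windows of tested genes and 2.11% of those of the higher genes.
JUN: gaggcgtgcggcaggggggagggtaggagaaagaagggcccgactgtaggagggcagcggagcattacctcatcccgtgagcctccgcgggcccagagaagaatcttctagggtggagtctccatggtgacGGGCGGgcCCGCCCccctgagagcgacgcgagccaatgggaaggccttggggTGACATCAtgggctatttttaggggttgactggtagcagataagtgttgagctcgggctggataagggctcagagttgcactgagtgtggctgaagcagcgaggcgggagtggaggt

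Other early response genes had a median of 0.19 over 21 tested, 15 above the median gene. Against PEN the median of the list was -0.21 in PEN-MUT and -0.08 in PEN-WT. ARC, a synaptic early gene, had 62 normalized counts in PEN-MUT and 96.3 in PEN-WT, beside 84.0 in PEN and 72.9 in PEN-FFW (0.63 ± 0.22), and the orphan receptor gene NR4A3 had 178 normalized counts in PEN-MUT and 268 in PEN-WT, beside 169.6 in PEN and 375 in PEN-FFW (0.59 ± 0.13). These were the 2 members past 1.5-fold (9.52%, beside 1.26% of all tested genes). EGR1, the early zinc finger factor, was at 0.32 ± 0.05 with 1153 normalized counts in PEN-MUT and 1437 in PEN-WT, beside 3726 in PEN and 1252 in PEN-FFW, so PEN-WT and PEN-MUT both lay far below PEN. SRF, which drives many early genes, was at 0.30 ± 0.04 and KLF4 at 0.28 ± 0.19.

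Feedback genes of ERK signalling were more often below the median gene, 10 of 16, with a median of -0.11 and 0 past 1.5-fold. DUSP6 and SPRY2 are given above, and SPRY1 was at -0.46 ± 0.18. SPRED3 (0.53 ± 0.18) and DUSP7 (0.46 ± 0.08) lay on the opposite side. In the network of MYC and its antagonists, MYC had 4363 normalized counts in PEN-MUT and 3878 in PEN-WT, beside 6109 in PEN and 3054 in PEN-FFW (-0.17 ± 0.03). MXD1, which competes with MYC for the partner MAX, had 122 normalized counts in PEN-MUT and 197 in PEN-WT, beside 132 in PEN and 139 in PEN-FFW (0.69 ± 0.16), past 1.5-fold and highest in PEN-WT. MNT, another antagonist, was at 0.55 ± 0.09, and the glucose-responsive MLXIP at 0.43 ± 0.06. The median of the 11 tested network genes was 0.05.

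Genes of protein synthesis, respiration and protein turnover lay slightly but regularly below the median gene, with 0 past 1.5-fold. Of 77 tested cytosolic ribosomal protein genes, 76 were below it, with a median of -0.13 and a range of -0.32 to 0.04. Of 76 mitochondrial ribosomal proteins 70 were below it (median -0.09), of 74 nuclear-encoded subunits of oxidative phosphorylation 72 (median -0.12), and of 31 proteasome subunits 30 (median -0.13). Such shifts are under the 1.2-fold within which most genes lay, and the members share short transcripts, with medians of 869, 1288, 763 and 1540 bases in the order named. Against PEN the list medians in that order were 0.04, 0.03, 0.09 and 0.03 in PEN-MUT. In PEN-WT they were -0.10, -0.08, -0.03 and -0.11, so for oxidative phosphorylation PEN-MUT stood farther from PEN than PEN-WT did. The lists were also abundant, with median mean normalized counts of 18680, 1903, 3393 and 5566 in the same order. Over all tested genes the median difference was -0.02 at a mean of 2000 to 5000 and -0.08 above 10000. The part of length and abundance in these shifts was not tested. The share at least 1.5-fold higher was 1.26% of all tested genes and 0.226% of those with a mean of at least 1000. A count of 0 past 1.5-fold therefore tells little in lists of the sizes used here. NDUFC2 of respiratory complex I was the farthest respiratory gene, with 1172 normalized counts in PEN-MUT and 945 in PEN-WT, beside 1006 in PEN and 811 in PEN-FFW (-0.31 ± 0.06). PSMA2 of the proteasome core had 3355 normalized counts in PEN-MUT and 2725 in PEN-WT, beside 3129.7 in PEN and 2099 in PEN-FFW (-0.30 ± 0.03). In both, PEN-WT was below PEN-MUT and PEN. MRPL45 of the mitochondrial ribosome went the other way (0.25 ± 0.05).

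Ribosome biogenesis factors, which build ribosomes in the nucleolus, had a median of -0.08 over 27 genes, with 23 below the median gene. NIP7 was at -0.21 ± 0.03, WDR43 at -0.20 ± 0.02, NOP16 at -0.19 ± 0.05 and POLR1B, a subunit of RNA polymerase I, at -0.17 ± 0.04. These 4 were highest in PEN. Cytosolic heat shock chaperones had a median of -0.15 over 33 genes, 26 below the median gene. After HSPA8 the farthest were HSPA1A (-0.26 ± 0.05) and HSPA1B (-0.22 ± 0.04), near-identical inducible genes whose reads cannot be split with certainty, and HSPH1 (-0.21 ± 0.02) and the chaperonin subunit CCT6A (-0.21 ± 0.01). Chaperones of the endoplasmic reticulum had a median of -0.11 over 21 genes, with HSPA5 at -0.25 ± 0.02 and PDIA4 at -0.22 ± 0.02. The ubiquitin ligase SYVN1 (0.55 ± 0.06) and the stress sensor ERN1 (0.34 ± 0.10) of the same list lay above the median gene.

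Genes of DNA replication had a median of -0.10 over 47 tested, 37 of them below the median gene, with CDC45 (-0.22 ± 0.04) and CCNE1 (-0.21 ± 0.07) farthest. Of 50 clustered histone genes, 46 were below it (median -0.06), and HIST1H4I was the farthest at -0.22 ± 0.04. Histone genes of these clusters have near-identical copies. Against PEN the median of the replication list was 0.05 in PEN-MUT and -0.05 in PEN-WT. That of the histone list was 0.13 in PEN-MUT and 0.06 in PEN-WT, so by its median this list was above the carrier in both. Mitosis genes had a median of -0.02 over 40, a side that turned to 0.01 against genes of like GC content. MKI67, the proliferation antigen, had 16108 normalized counts in PEN-MUT and 19913 in PEN-WT, beside 16940.1 in PEN and 23484 in PEN-FFW (0.31 ± 0.01), and PLK1 and CDC25B, which drive entry into mitosis, were at 0.19 ± 0.03 and 0.20 ± 0.03. MAD2L1 of the same list (-0.18 ± 0.03) was among the 24 of 40 below the median gene. None of these 3 lists had a member past 1.5-fold.

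Amino acid and insulin responses leaned upward by small amounts. Genes of the integrated stress response and tRNA synthetases had 24 of 33 members above the median gene (median 0.04), with SESN2, an inhibitor of growth signalling through mTOR, at 0.40 ± 0.05, the glutathione-degrading CHAC1 at 0.32 ± 0.07 and the amino acid exchanger SLC7A5 at 0.31 ± 0.02. All 3 were highest in PEN-WT. Insulin and FOXO responsive genes had 15 of 18 above it (median 0.07), with the docking protein IRS2 at 0.38 ± 0.09 and the receptor IGF1R at 0.30 ± 0.06. HMOX1, which breaks down haem, was at 0.31 ± 0.02 and OSGIN1 at 0.36 ± 0.20, whereas the 20 tested NRF2 antioxidant genes had a median of -0.03. SREBF2, the master regulator of cholesterol synthesis, had 1690 normalized counts in PEN-MUT and 2298 in PEN-WT, beside 1809.6 in PEN and 1985 in PEN-FFW (0.44 ± 0.04), while the 26 genes of its list had a median of -0.01. Glycolysis and hypoxia genes had a median of -0.08 over 29, with PGAM1 at -0.26 ± 0.03 and PFKFB3 at 0.21 ± 0.06.

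HOX genes, which set position along the body axis, had 22 of 26 members above the median gene and a median of 0.15. Past 1.5-fold was 1 member (3.85%, beside 1.26% of all tested genes). HOXB8 had 68 normalized counts in PEN-MUT and 119 in PEN-WT, beside 84.8 in PEN and 60.0 in PEN-FFW (0.80 ± 0.21), HOXB9 was at 0.49 ± 0.18 and HOXA5 at 0.45 ± 0.16. All 3 were highest in PEN-WT and lower in PEN-FFW than in PEN. IRF7, which drives interferon genes, had 64 normalized counts in PEN-MUT and 116 in PEN-WT, beside 86.5 in PEN and 338 in PEN-FFW (0.85 ± 0.22), but the 15 tested interferon-induced genes had a median of -0.04, with ISG15 at -0.24 ± 0.10. Of 8 inflammatory genes, RELB (0.53 ± 0.13) and BIRC3 (-0.34 ± 0.12) lay on opposite sides, with a median of 0.05.

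Responsive genes of YAP and TGF-beta had a median of 0.04 over 23, with AJUBA at 0.37 ± 0.03 and the signal inhibitors SMAD6 and SMAD7 at 0.36 ± 0.07 and 0.34 ± 0.13. Oncofetal and adult liver genes had 12 tested members with a median of 0.04, 6 on each side, a median that was -0.02 against genes of like GC content. Among them the RNA-binding oncofetal IGF2BP1 was at 0.21 ± 0.02 and TDO2, which degrades tryptophan, at -0.29 ± 0.05. Collagen and matrix genes had a median of 0.09 over 23 (COL7A1 0.42 ± 0.09, HSPG2 0.41 ± 0.10). COL4A6 (-0.28 ± 0.20) was among the 10 of the 23 below the median gene. The BCL2 family (median -0.01 over 16, BMF 0.23 ± 0.19), endocytosis and lysosome genes (-0.03 over 31), host genes of small nucleolar RNAs (-0.03 over 16) and metallothioneins (0.11 over 5) had 0 members past 1.5-fold.

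**Figure D3:**
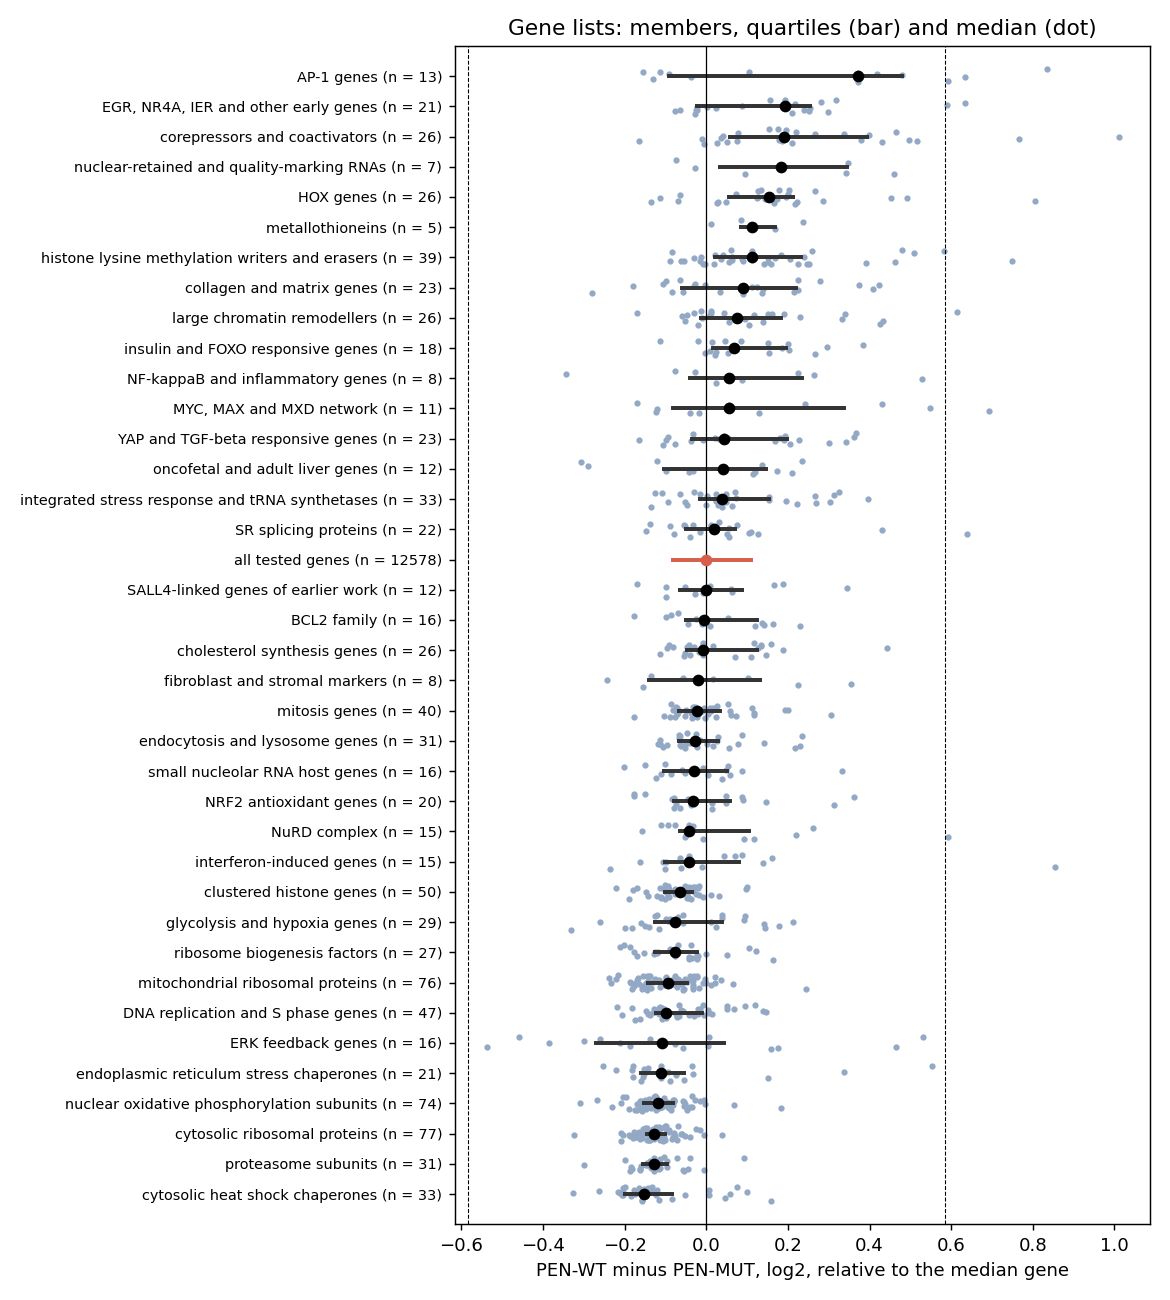
Differences of PEN-WT minus PEN-MUT (log2, relative to the median gene) for the reported gene lists with at least 5 tested members: small points are genes, the black dot is the list's median, the bar its quartiles, and red stands for all 12578 tested genes. AP-1 genes have the highest median (0.37) and cytosolic heat shock chaperones the lowest (-0.15); the dashed lines are at 1.5-fold.

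The differences followed the base composition and length of the transcripts. Higher genes were rich in G and C: the 148 of the 159 with a known value had a median transcript GC content of 59.1%, against 48.3% over tested genes, and a median mean normalized count of 122 against 1091. In bins of GC content the median difference ran from -0.06 at 35.7% GC to 0.12 at 66.2% GC. Across 12105 genes, which are not independent replicates, Spearman's rho of the difference was 0.330 with GC content, -0.203 with mean count and 0.199 with transcript length. For PEN-MUT minus PEN these were 0.088, -0.033 and -0.150, and for PEN-FFW minus PEN 0.363, -0.355 and 0.193. In bins of length the median difference was -0.07 at a median of 929 bases and 0.05 at 9612 bases, and the sign of that relation was the opposite in PEN-MUT minus PEN, with which PEN-MUT is shared.

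Against genes of like GC content, 109 genes were at least 1.5-fold higher and 11 lower, where the genes with a GC value held 148 and 8 before, with ARC, FOSL1, JUND, SALL3 and SRCAP under 1.5-fold. The medians of the lists moved little: 0.33 for AP-1 genes, 0.18 for corepressors and coactivators, 0.11 for histone lysine methylation, -0.13 for cytosolic ribosomal proteins and -0.13 for proteasome subunits. The part of GC content and length in the differences was not tested.

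**Figure D4:**
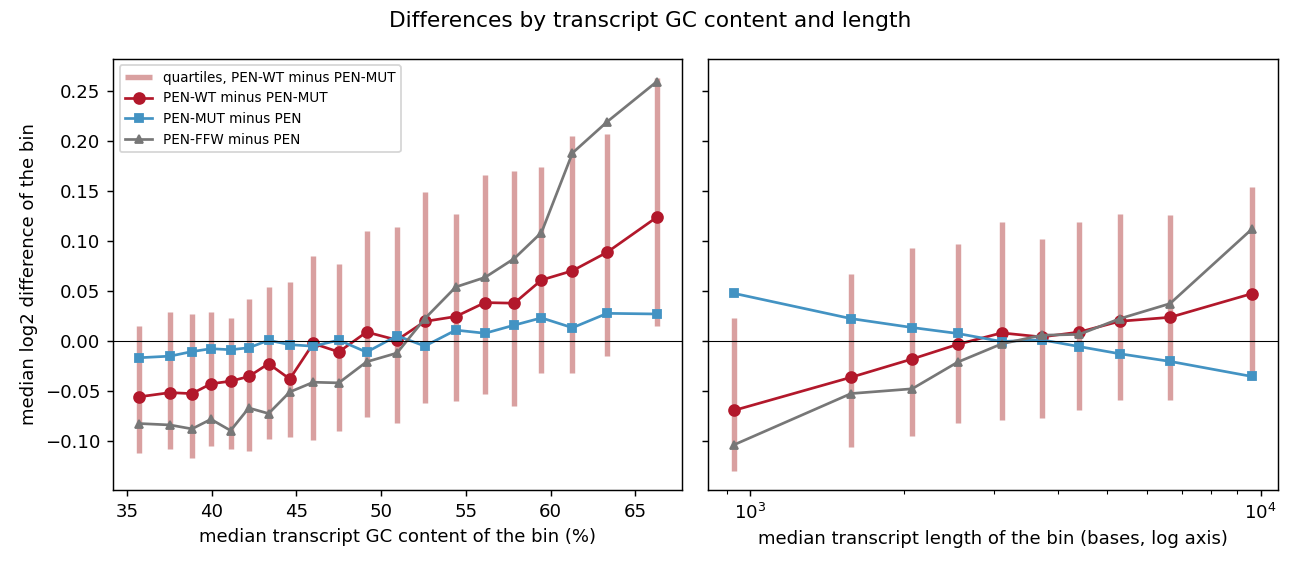
Median log2 difference of genes in 20 bins of transcript GC content (left, percent) and 10 bins of transcript length (right, bases, log axis), for PEN-WT minus PEN-MUT (red, with quartiles as bars), PEN-MUT minus PEN (blue) and PEN-FFW minus PEN (grey). The red line runs from -0.06 to 0.12 with GC content and from -0.07 to 0.05 with length.

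PEN-FFW minus PEN is a comparison of a SALL4-derived and a control peptide that shares no library with PEN-WT minus PEN-MUT. Of the 159 higher genes, 147 (92.5%) were above the median gene there, against 50% of all tested genes, and 113 (71.1%) were at least 1.5-fold higher, against 7.78% of all tested genes. Their median in PEN-FFW minus PEN was 1.00. Of the 15 abundant ones, 11 were at least 1.5-fold higher there, against 1.85% of all tested genes this abundant. Among the 9 lower genes 4 were under the median gene there, 1 of them past 1.5-fold (SAMSN1, against 0.596% of all tested genes), and 2, MAP1B and CSTF3-AS1, were at least 1.5-fold higher. For the higher genes both shares were thus above those of all tested genes. The filter averaged all 4 libraries, so a thinly counted gene could be tested because it was high in PEN-FFW. The pair was therefore not wholly separate from the choice of genes. With a mean of at least 50 over PEN-WT and PEN-MUT alone, 145 genes were higher. Of those, 91.7% were above the median gene in PEN-FFW minus PEN. The shares past 1.5-fold there, for all higher genes and for the abundant ones, are given only with the filter over all 4 libraries. For the lower genes the share under the median gene was 44.4%, against 50%, and the shares past 1.5-fold rest on 1 and 2 genes.

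Across the 12578 genes Pearson's r between the pairs was 0.560 and Spearman's rho 0.510, and among abundant genes 0.637 and 0.566. The points share GC content, abundance and the carrier peptide, and both differences followed GC content and abundance as given above. Other pairings of the 4 libraries without a shared library gave r = 0.413 (PEN-WT minus PEN with PEN-FFW minus PEN-MUT) and -0.114 (PEN-MUT minus PEN with PEN-FFW minus PEN-WT).

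The 12 higher genes that were not above the median gene in PEN-FFW minus PEN are named here after their values were seen. HMGN5, a nucleosome-binding protein, was at 0.92 in PEN-WT minus PEN-MUT and -0.21 in PEN-FFW minus PEN. HOXB8 was at 0.80 and -0.22, FOSL1 at 0.63 and -0.32, and the insulin-responsive kinase SGK1 at 0.62 and -0.27. F8A1, which has near-identical copies, was at 0.61 and -0.59, the 1 gene at least 1.5-fold lower in PEN-FFW. SOX13, NAALADL2, BASP1, SNORD52, CASP2, FAM127B and LDOC1 completed the set, with 0.66 and -0.07 for the transcription factor SOX13 and 0.61 and -0.03 for the caspase CASP2.

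**Figure D5:**
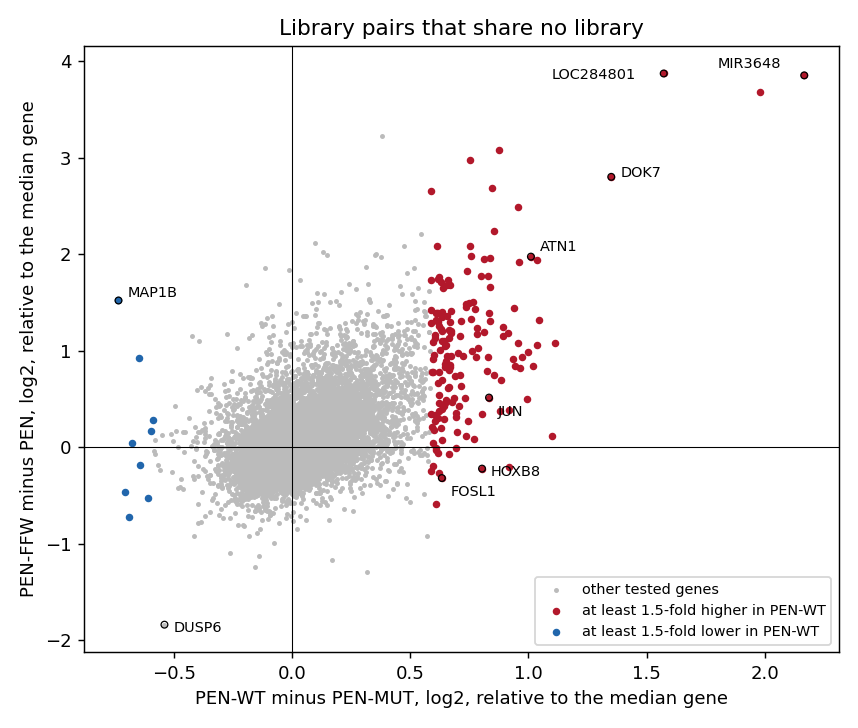
PEN-WT minus PEN-MUT (horizontal) against PEN-FFW minus PEN (vertical), both log2 and relative to the median gene, 1 point per tested gene. Of the 159 genes at least 1.5-fold higher in PEN-WT (red) 147 lie above 0 on the vertical axis, while the 9 lower genes (blue) lie on both sides, with MAP1B at the upper left.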

How the data were processed

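The authors deposited log2 values per gene, in 1 column for each of the 4 RNA libraries, with 0 other per-sample columns. The submitters' processing notes name STAR 2.4.0i, featureCounts 1.5.0-p1 and the build hg19. How values were normalized, and with which annotation and strand setting, is not given in the sources used here, so overlapping, antisense and near-identical genes are uncertain. With the log undone, 100% of values above the floor of 5 were whole multiples of a step (tolerance 0.1 read), which gave back the reads. Steps were 1 for PEN-MUT and 0.776 for PEN-WT. The rule for named genes took the 10 highest and 10 lowest whose counting interval excluded 0, the 6 highest and lowest of mean at least 1000 (small RNA and clone names apart), the NuRD and SALL genes, and at most 5 members of each of 43 lists. Members and lists were chosen with earlier results of these data known. Some genes that the rule named and 1 list are not reported here, nor are all list members. Positions, lengths and GC content came from GENCODE 44 lifted to GRCh37 (20574 genes matched by symbol, 1572 by an older one, 1564 unmatched). Python 3.11.15, numpy 2.4.6, pandas 2.3.3, scipy 1.17.1 and matplotlib 3.10.9 were used, and the counting was tested on simulated data. Alternatives changed the pseudocount, centring, scaling, filter and GC content reference.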

Additional observations from a re-analysis of the deposited data

How the results depend on the processing

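Counts of genes depended on the filter, and no value changed sign among the named genes past 1.5-fold. With a mean of at least 20 in place of 50, 332 genes were at least 1.5-fold higher and 55 lower, and 55 and 3 at 2-fold. With a mean of at least 200 these were 62 and 1, with 6 higher at 2-fold. With any gene above the floor in PEN-WT or PEN-MUT they were 718 and 246, and 163 and 62 at 2-fold. Adding 10 to each normalized count left 2 genes 1.5-fold lower and 5 genes 2-fold higher. Against genes of like GC content, 3 were 2-fold higher, and 9 of the abundant genes were 1.5-fold higher in place of 15, of which 11 had a GC value. The share of higher genes above the median gene in PEN-FFW minus PEN was 85.5% without centring and 87.0% with genes above the floor. Of 36 named genes past 1.5-fold, 10 fell under it with 10 added (among them NR4A3 and GATAD2B), 5 with the GC reference and 2 with library totals as the scale (SDHAP3 and TMEM187). Depth limits the thinly counted genes most, since 72 of the 159 higher genes had a mean of 50 to 100. No paired analysis was possible because each peptide had 1 library, and for the same reason no replicate could be left out.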

Other observations

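Pseudogenes and clone-named genes lay more often above the median gene than below it, which small RNA names (66 of 135, median -0.01) did not. Of 163 tested genes that the annotation gives as pseudogenes, 111 were above the median gene in PEN-WT minus PEN-MUT (median 0.06) and 6 were at least 1.5-fold higher (3.68%). Of 261 genes with clone names, 176 were above it (median 0.08) and 7 were at least 1.5-fold higher (2.68%). Over all tested genes that share was 1.26%, and over those with a mean of 100 to 200 it was 2.67%. Long noncoding RNAs had 121 of 224 above it (median 0.03), and the 11739 protein-coding genes had a median of 0.00. These groups had median mean normalized counts of 170, 139 and 159, against 1202 for protein-coding genes, and the part of abundance in these values was not tested. In PEN-FFW minus PEN, which shares no library with this comparison, their medians were 0.36 for pseudogenes, 0.29 for clone names and 0.16 for long noncoding RNAs.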
